A study of Mus musculus with 4 samples.

Results

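Fracture callus, the cartilage and woven bone that bridges a healing break, was compared between mice given glucocorticoid (GC) and control mice with all of its cells taken as 1 sample. Members were chosen by a rule on barcodes, the tags that mark single droplets. A barcode entered when it held at least 500 unique molecular identifiers (UMIs, each a captured RNA molecule) and at least 200 genes, with at most 10% of its UMIs from mitochondrial genes. The rule kept 7133 barcodes of control callus and 7318 of GC callus, 14451 of the 23216 barcodes that it keeps over the 4 libraries of the series. Their UMIs were summed per gene and expressed as CPM, the share of the library's UMIs scaled to a common total.

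The mice were C57BL/6J males of 20 weeks, sampled at week 2. Per the labels, GC mice received prednisolone from a slow-release pellet at 6.25 mg/kg/d and control mice a placebo pellet, whereas the study's text describes daily injection of the same dose in its fracture model. Each side is 1 single-cell library of enzyme-digested bone fragments after the marrow had been flushed out, and the number of mice behind it is not given in the sources used here. No replicate spread can therefore be measured and no test between conditions was made. Intervals printed below are exact 95% Poisson intervals for a CPM, or exact conditional intervals for a ratio of a pair of counts, and they cover counting error only. The other pair of libraries, from trabecular bone of unfractured mice under the same drug, shares no library with the callus pair and serves as the comparison tissue.

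Prednisolone acts through the glucocorticoid receptor, a transcription factor that switches on genes such as Fkbp5, Tsc22d3 and Per1, and that represses many inflammatory genes driven by NF-kB and AP-1. In a callus, chondrocytes first lay down a matrix of type II collagen and aggrecan, then enlarge, express type X collagen and are replaced by bone. Neutrophils, macrophages, lymphoid cells, osteoclasts and endothelial cells share the tissue. The early callus is poorly supplied with blood, and its cells use the hypoxia-inducible factors and glycolysis.

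Depth differed between the sides. The control profile rested on 89162394 UMIs with a median of 4550 UMIs and 1690 genes per barcode, and the GC profile on 63497992 UMIs with a median of 3532 UMIs. The control matrix lists all possible barcodes and the GC matrix 7762 barcodes that had already been called, so the rule started from different lists. Between the libraries 12 barcodes are shared. Callus carried its defining markers on both sides: Col2a1, type II collagen, was listed at 43200 CPM in control and 28020 CPM in GC callus, and Col10a1 at 14790 and 14380 CPM. When the 2 libraries were clustered together, 12 clusters formed. Cluster number 4 held 29 control barcodes and 1408 GC barcodes, 10.5% of the UMIs of the GC profile, and its GC barcodes had a median of 2788 UMIs. Cluster number 2, led by Aspn and rich in Col2a1, held 1350 control and 745 GC barcodes, 38.3% and 24.3% of the UMIs. Its chondrocyte markers summed to 82410 CPM in control and 55270 CPM in GC. Its osteoblast and osteocyte markers summed to 15200 and 37830 CPM, so it may mix cell types. Cluster number 0, a cartilage cluster led by Col10a1, held 45.3% and 47.1%. Most UMIs of both profiles thus came from these 2 clusters, both rich in Col2a1. Directions are counted below over the clusters with enough UMIs of a gene. Such a count is a description, because in clusters where a gene is low its UMIs can be free RNA from the cells that express it, and those directions are then not independent. The part of cluster number 4 in the results was examined by leaving it out. Each gene was also recomputed with the GC clusters weighted to the UMI shares they have in control. Such weighting holds the shares of clusters, not the mixture of cells inside a cluster. In a pooled profile, fewer cells of a type and less RNA per cell cannot be told apart.

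The pooled profiles were close to each other. Of 7674 genes with a mean of at least 10 CPM over the 2 libraries, 72.1% lay within 1.25-fold of each other and 92.9% within 1.5-fold, and the median log2 ratio of GC over control was 0.05. A gene was called when it differed at least 2-fold on CPM + 1. There were 46 genes called higher in GC callus, 0.599% of those compared, and 53 called lower, 0.691%. Among the called genes, 33 of the higher and 48 of the lower are protein coding. With TMM scaling, another way to set the library totals, 35 genes were higher and 76 lower, so the share of calls that were higher went from 46.5% to 31.5%.

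**Figure D1:**
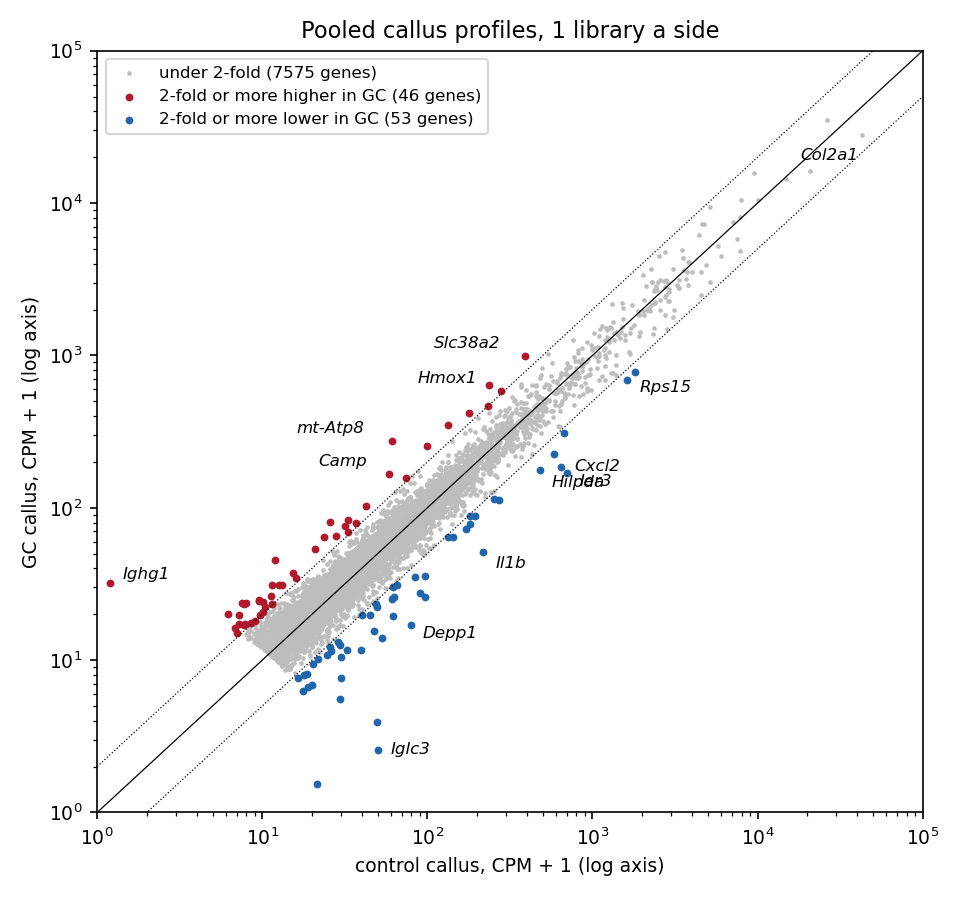
Expression of 7674 genes in the pooled control callus (x axis, CPM + 1, log axis) and GC callus (y axis, CPM + 1, log axis), 1 point a gene. The solid line is equality and the dotted lines mark 2-fold, and 46 genes lie above and 53 below them, most of them at low to middle levels.

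Among the 15 lowest ratios were 5 cytokine and chemokine genes (Il1b, Osm, Cxcl1, Cxcl2 and Cxcl3), genes found in cartilage such as Epyc, and the hypoxia-induced gene Hilpda. The highest ratios belonged to a mixed set, with 2 short mitochondrial genes, granule proteins of neutrophils, and single genes of transport and signaling such as Slc38a2 and Igfbp5. Rules on the ranking were applied to genes with a mean of at least 20 CPM, and the 15 lowest and 15 highest are shown in the plot of paired levels.

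**Figure D2:**
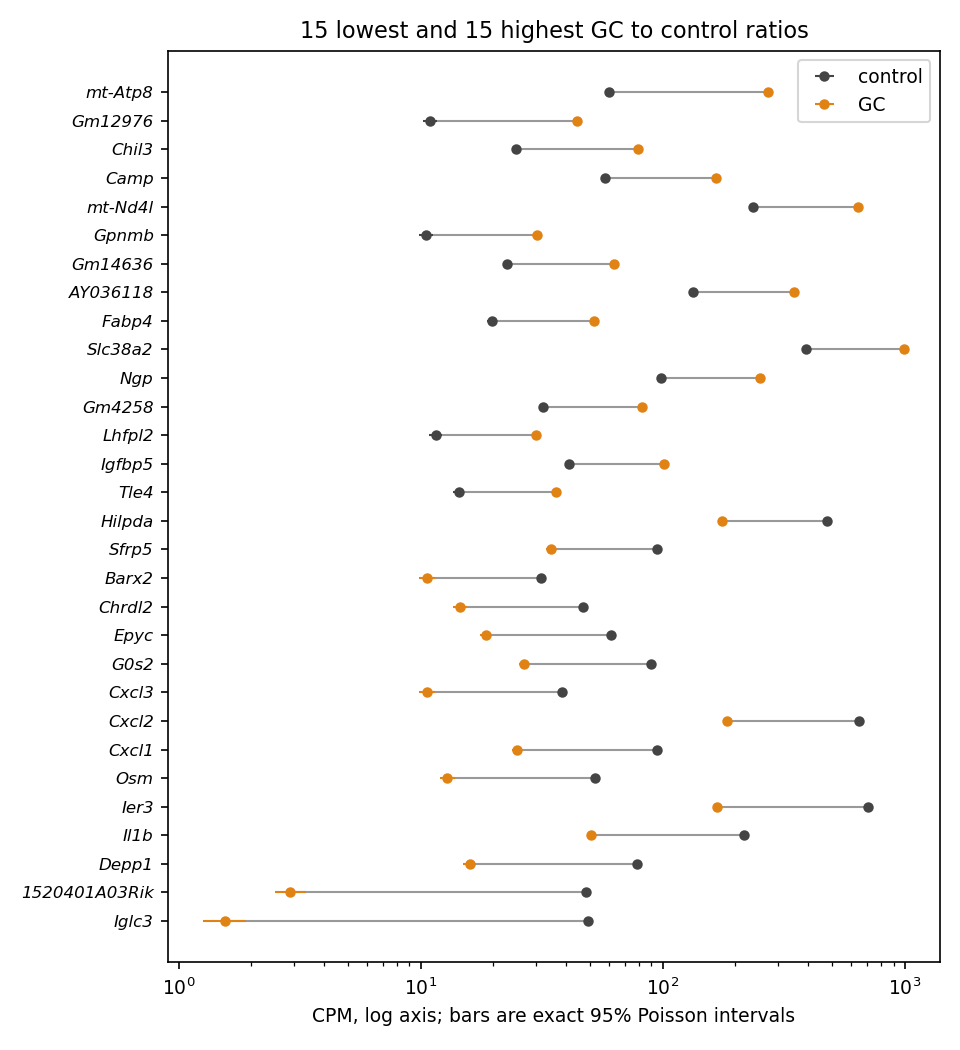
Levels of the 15 genes with the lowest and the 15 with the highest ratio in control callus (dark) and GC callus (orange), in CPM on a log axis, with exact 95% Poisson intervals that are mostly narrower than the symbols. Il1b sits at 216 CPM in control and 50.6 CPM in GC, and mt-Atp8 at 59.9 and 272 CPM.

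Before the values, the promoters of 6 genes with low ratios are shown, because they carry short motifs of the transcription factors named above. Sequences are RefSeq promoters on GRCm38.p6, each 300 bases long, 250 before the start of the gene and 50 after it, written 5′ to 3′ on the strand of the gene. In the 3 chemokine promoters, capitals mark the kB-like motif GGGANNTTC, searched on both strands. Cxcl1 lies on the plus strand at chr5:90890995-90891294, Cxcl2 on the plus strand at chr5:90903649-90903948, and Cxcl3 on the plus strand at chr5:90785851-90786150.
Cxcl1: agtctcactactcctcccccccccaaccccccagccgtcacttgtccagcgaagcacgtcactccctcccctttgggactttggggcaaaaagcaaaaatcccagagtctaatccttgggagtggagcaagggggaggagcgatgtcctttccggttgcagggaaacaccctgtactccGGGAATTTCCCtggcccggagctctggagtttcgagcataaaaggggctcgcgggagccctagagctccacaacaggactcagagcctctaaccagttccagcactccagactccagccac
Cxcl2: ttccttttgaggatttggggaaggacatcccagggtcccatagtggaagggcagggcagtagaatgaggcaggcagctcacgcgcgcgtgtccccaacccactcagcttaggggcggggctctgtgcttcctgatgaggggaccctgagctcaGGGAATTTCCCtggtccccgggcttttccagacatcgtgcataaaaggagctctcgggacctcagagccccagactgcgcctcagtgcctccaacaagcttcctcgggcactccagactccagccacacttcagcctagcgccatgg
Cxcl3: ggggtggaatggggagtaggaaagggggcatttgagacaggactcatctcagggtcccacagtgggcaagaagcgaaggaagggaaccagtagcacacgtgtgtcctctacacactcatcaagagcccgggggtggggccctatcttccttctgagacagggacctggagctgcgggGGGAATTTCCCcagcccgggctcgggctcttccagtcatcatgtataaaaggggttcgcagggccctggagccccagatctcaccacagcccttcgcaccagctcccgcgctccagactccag

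Each of the 3 windows held 2 overlapping matches on opposite strands, and the letters in capitals are the same in all 3. The motif is present in promoters of 1209 of 27025 genes, 4.47%. Of the 53 genes called lower, 38 had a promoter in the table and 3 of these, the chemokines shown, held the motif. Of the 46 called higher, 34 had one and 1 held the motif, Tnf. No match was found in the windows of Il1b or Ier3, which says only that these letters are not there.

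In the next 3 promoters, capitals mark the hypoxia-response core ACGTG, also searched on both strands. Hilpda lies on the plus strand at chr6:29272376-29272675, Egln3 on the minus strand at chr12:54203825-54204124, and Ankrd37 on the minus strand at chr8:45999801-46000100.
Hilpda: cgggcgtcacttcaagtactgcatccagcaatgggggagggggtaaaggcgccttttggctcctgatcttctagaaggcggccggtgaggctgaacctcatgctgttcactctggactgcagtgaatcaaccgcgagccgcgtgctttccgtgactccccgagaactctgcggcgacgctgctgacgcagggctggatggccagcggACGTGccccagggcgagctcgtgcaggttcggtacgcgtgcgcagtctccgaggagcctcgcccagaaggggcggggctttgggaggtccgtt
Egln3: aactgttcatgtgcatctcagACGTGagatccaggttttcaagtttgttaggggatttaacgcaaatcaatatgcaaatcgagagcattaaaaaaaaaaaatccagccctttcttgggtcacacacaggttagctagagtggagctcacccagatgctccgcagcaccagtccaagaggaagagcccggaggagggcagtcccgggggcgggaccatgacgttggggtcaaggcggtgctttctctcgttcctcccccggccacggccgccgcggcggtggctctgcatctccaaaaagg
Ankrd37: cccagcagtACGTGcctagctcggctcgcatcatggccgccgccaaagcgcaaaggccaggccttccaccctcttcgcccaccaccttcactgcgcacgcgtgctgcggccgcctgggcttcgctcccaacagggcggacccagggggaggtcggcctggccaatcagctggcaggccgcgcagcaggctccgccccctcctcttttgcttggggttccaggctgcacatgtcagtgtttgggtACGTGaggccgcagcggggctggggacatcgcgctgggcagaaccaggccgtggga

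For Hilpda, the window shown is 1 of 2 listed starts and the other window held no match. The windows of Depp1, Kctd11 and Adm, which were also called lower, held no match. This short core is common: it is found in promoters of 5886 of 27025 genes, 21.8%, and of 1929 of 6123 compared genes, 31.5%. It was found in 11 of the 38 promoters of genes called lower, and in 7 of the 34 of genes called higher.

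Secreted inflammatory signals are described first. Il1b, which encodes interleukin-1 beta and lies on the minus strand at chr2:129364570-129371139 (GRCm38), overlapping the annotated gene Il1bos on the other strand, was measured at 216 CPM in control and 50.6 CPM in GC callus, a ratio of 0.234 (0.225 to 0.243). Osm, the cytokine oncostatin M, was at 52.4 and 12.9 CPM, a ratio of 0.246 (0.229 to 0.266). In control, Il1b was highest in clusters number 1, 3 and 7, at 5575, 979 and 603 CPM, and there it was at 1013, 369 and 92.1 CPM in GC callus. In cluster number 0, led by Col10a1, it was at 21.8 and 3.71 CPM, a level that free RNA could bring, so the direction there says nothing more.

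The chemokines that attract neutrophils through CXCR2 showed ratios of like size. Cxcl2 was at 647 CPM in control and 185 CPM in GC callus, a ratio of 0.286 (0.281 to 0.292). Most of it sat in cluster number 1, at 17030 CPM in control and 3793 CPM in GC, and cluster number 3, at 2361 and 1116 CPM. Cxcl1 was at 95.1 and 25.0 CPM, a ratio of 0.263 (0.249 to 0.277), and was highest in cluster number 2, led by Aspn, at 216 and 38.7 CPM. Cxcl3 was at 38.6 and 10.6 CPM, a ratio of 0.275 (0.253 to 0.298). Weighting the GC clusters to the shares of control left the log2 ratios of Cxcl1, Cxcl2 and Cxcl3 at -1.89, -1.86 and -1.98, beside -1.89, -1.80 and -1.77 in the pooled profile.

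Ier3, an immediate early gene linked to stress and survival, had the highest control level among the 15 lowest ratios, 704 CPM against 167 CPM in GC, a ratio of 0.237 (0.233 to 0.242), and it was lower in 10 of 10 clusters. It was the 1 called member of the immediate early and dissociation stress list, beside a share of 0.691% called lower over all genes compared. The 18 compared genes of the list had a median log2 ratio of -0.23, with 13 below 0. Fos, Jun and Egr1, genes that cell isolation also induces, were listed at log2 ratios of -0.35, -0.22 and -0.24. Depp1, a target of FOXO factors that no list holds, was at 78.1 CPM in control and 15.9 CPM in GC callus, a ratio of 0.204 (0.191 to 0.218).

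Inflammatory genes did not all lie on 1 side. Over all genes compared, 0.691% were called lower and 0.599% higher. Of 20 genes known to be repressed by glucocorticoids, 13 were compared, 4 were called lower (Il1b, Ccl2, Cxcl1 and Cxcl2) and 1 higher, and the median log2 ratio was -0.03. The gene called higher was Tnf, tumor necrosis factor, at 6.86 CPM in control and 16.3 CPM in GC callus, a ratio of 2.37 (2.14 to 2.62). Ccl2, which attracts monocytes, was at 16.8 and 5.28 CPM, and 13 barcodes held 50% of its control UMIs. Ptgs2, the inducible cyclooxygenase, was at 1297 and 1507 CPM, a log2 ratio of 0.22, but it was lower in 6 of 11 clusters. It was at 1626 and 2098 CPM in cluster number 0, and at 488 and 161 CPM in number 1. Nos2, inducible nitric oxide synthase, lay under the minimum level for a call, at 10.7 CPM in control and 1.35 CPM in GC.

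A list of 22 NF-kB targets and feedback genes, assembled after values had been seen, held members on both sides. Of 21 compared, 7 were called lower, among them Osm, Ier3 and Cxcl3, and 1 higher, with a median log2 ratio of -0.25. The shares over all genes compared were 0.691% and 0.599%. Feedback genes lay nearer to 0: Nfkbia, the inhibitor of NF-kB, had a log2 ratio of -0.23, Tnfaip3 0.55 and Nfkbiz -0.12. Members of the list were picked partly for their values, so the counts describe it only. In trabecular bone the median of the same 21 genes was 0.23.

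Some genes of the low-oxygen response were low. Hilpda, which coats lipid droplets and inhibits their breakdown, was measured at 477 CPM in control and 176 CPM in GC callus, a ratio of 0.370 (0.362 to 0.378), and it was lower in 10 of 10 clusters. Egln3, an oxygen-sensing prolyl hydroxylase that the hypoxia-inducible factors induce, was at 29.0 and 6.58 CPM, and lower in 7 of 7 clusters. Ankrd37, another of their targets, was at 28.8 and 9.47 CPM, and lower in 8 of 8.

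A list of 26 hypoxia-induced genes was assembled after these values had been seen. Of 25 compared, 7 were called lower (Adm, Ankrd37, Egln3, Ero1l, Hilpda, Kctd11 and Pfkfb3) and 0 higher, and 20 lay below 0, with a median log2 ratio of -0.52. The shares over all genes compared were 0.691% lower and 0.599% higher. Because the list includes genes whose values prompted it, its counts and median describe it only. Ero1l, an oxidase of protein folding, was at 179 and 77.6 CPM, and Pfkfb3, an activator of glycolysis, at 132 and 63.6 CPM. Other well-known members lay near 0: Vegfa, the vascular growth factor, was at 647 and 583 CPM, and Bnip3 at 212 and 218 CPM. The list median was -0.49 with cluster shares held and -0.55 without cluster number 4. In trabecular bone it was -0.04, with Vegfa at a log2 ratio of -1.27.

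Glucose metabolism leaned the same way with smaller ratios. Of 18 genes of glycolysis and glucose uptake 17 lay below 0, with a median log2 ratio of -0.28 and 0 called. Slc2a1, the glucose transporter GLUT1, was the lowest at 427 CPM in control and 224 CPM in GC callus, a ratio of 0.526 (0.516 to 0.536), and it was lower in 10 of 11 clusters. Eno1, an enolase, had a log2 ratio of -0.74, and Aldoa, an aldolase, was the gene above 0, at 0.28. The median of 20 nuclear genes of oxidative phosphorylation was -0.08.

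Genes of fat storage and transport lay on both sides. Of 18 compared genes of fatty acid uptake and oxidation, 1 was called lower (Hilpda) and 1 higher (Fabp4), and the median log2 ratio was -0.02. The shares over all genes compared were 0.691% lower and 0.599% higher. Plin2, a lipid droplet coat protein, was at 102 CPM in control and 62.7 CPM in GC callus, and G0s2, an inhibitor of the lipase ATGL, at 89.3 and 26.7 CPM. Cpt1a, which passes fatty acids into mitochondria, was at 16.3 and 13.7 CPM. Cd36, a fatty acid carrier of the cell surface, was at 16.6 and 31.3 CPM, and Fabp4, a fatty acid binding protein of capillaries and fat cells, at 19.7 and 52.3 CPM. Defining fat cell genes were near 0 on both sides, Adipoq at 0.236 and 0.378 CPM, and the log2 ratio of Fabp4 went from 1.36 to 0.81 with cluster shares held.

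Cartilage genes lay mostly below control. Over all genes compared, 0.691% were called lower and 0.599% higher. Of 20 cartilage matrix genes, 3 were called lower (Epyc, Ucma and Mia) and 0 higher, 18 lay below 0, and the median log2 ratio was -0.60. Their summed level was 84780 CPM in control and 58870 CPM in GC callus. Among the major matrix proteins Col9a2 had a log2 ratio of -0.94, Hapln1 (link protein) -0.65, Col2a1 -0.62 and Acan (aggrecan) -0.14. Within the 3 clusters with the highest Col2a1 levels, it was lower in GC in numbers 0 (48510 and 32230 CPM) and 2 (54020 and 35960 CPM) and higher in number 4 (32550 and 38050 CPM). Number 4 sets 29 control barcodes with a median of 21663 UMIs against 1408 GC barcodes with a median of 2788. Its 2 sides may therefore not be like cells. Number 2 also held osteoblast and osteocyte markers, so its cell mixture may differ between the sides as well. The other 9 clusters held at most 2739 CPM in either library, a level that free cartilage RNA could bring. The ratio of Col2a1 was 0.649 (0.648 to 0.650).

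Smaller cartilage genes stood lower still. Epyc, the proteoglycan epiphycan, was at 61.1 CPM in control and 18.6 CPM in GC callus, a ratio of 0.305 (0.286 to 0.324). Ucma, a protein of the resting and early cartilage zone, was at 251 and 113 CPM, and Mia, a secreted protein of chondrocytes, at 667 and 309 CPM. Chad and Prg4 were the 2 matrix genes above 0, with log2 ratios of 0.45 and 0.61. Matrix genes were also low with cluster shares held (median -0.57) and without cluster number 4 (median -0.70).

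Regulators found in cartilage were among the 15 lowest ratios as well. Chrdl2, a BMP antagonist, was at 46.8 CPM in control and 14.5 CPM in GC callus, a ratio of 0.310 (0.288 to 0.333). Sfrp5, a Wnt antagonist, was at 95.3 and 34.6 CPM, and Barx2, a homeobox factor, at 31.4 and 10.6 CPM. With cluster shares held their log2 ratios were -1.23, -1.13 and -1.19. All 10 chondrocyte markers lay below 0 (median log2 ratio -0.64, 0 called), including Sox9, the master factor of cartilage, at -0.24.

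In the pooled profile, genes of the later, hypertrophic stage were closer to control. Col10a1 had a log2 ratio of -0.04, Ihh, the signal that paces chondrocyte maturation, -0.56, and Mmp13, a collagenase, -0.44. The pooled value of Col10a1 joined unlike clusters. In number 0, which it leads, it was at 30080 CPM in control and 24180 CPM in GC, and in number 4 at 12280 and 23170 CPM. Over the alternative settings its log2 ratio ran from -0.306 to 0.221. Over 13 genes of this stage the median was -0.19, with 0 called. The gene furthest above 0 was Ibsp, bone sialoprotein, which early bone also expresses, at 9469 CPM in control and 15650 CPM in GC callus, a ratio of 1.65 (1.65 to 1.66).

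Bone matrix genes leaned above 0. Of 17 compared, 11 were above and 6 below 0, 0 were called, and the median log2 ratio was 0.15. Col1a1, the main collagen chain of bone, was at 5186 CPM in control and 9361 CPM in GC callus, a ratio of 1.81 (1.80 to 1.81), and Col1a2 at 7929 and 10510 CPM. Bglap, osteocalcin, was at 53.4 and 35.4 CPM, and Sp7, the osteoblast factor osterix, at 54.7 and 47.8 CPM. Sparc, osteonectin, was at 20840 and 16270 CPM, so the summed level of the list (54160 and 63200 CPM) was carried by few genes.

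Connective tissue genes were split, with 10 of 19 above 0 and a median of 0.18. Tnc (tenascin C) and Postn (periostin), both found in healing tissue, had the highest log2 ratios of that list, 0.90 and 0.84. Eln and Fbn1, of elastic fibers, were at -0.35 and -0.44. None of the 19 was called.

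**Figure D3:**
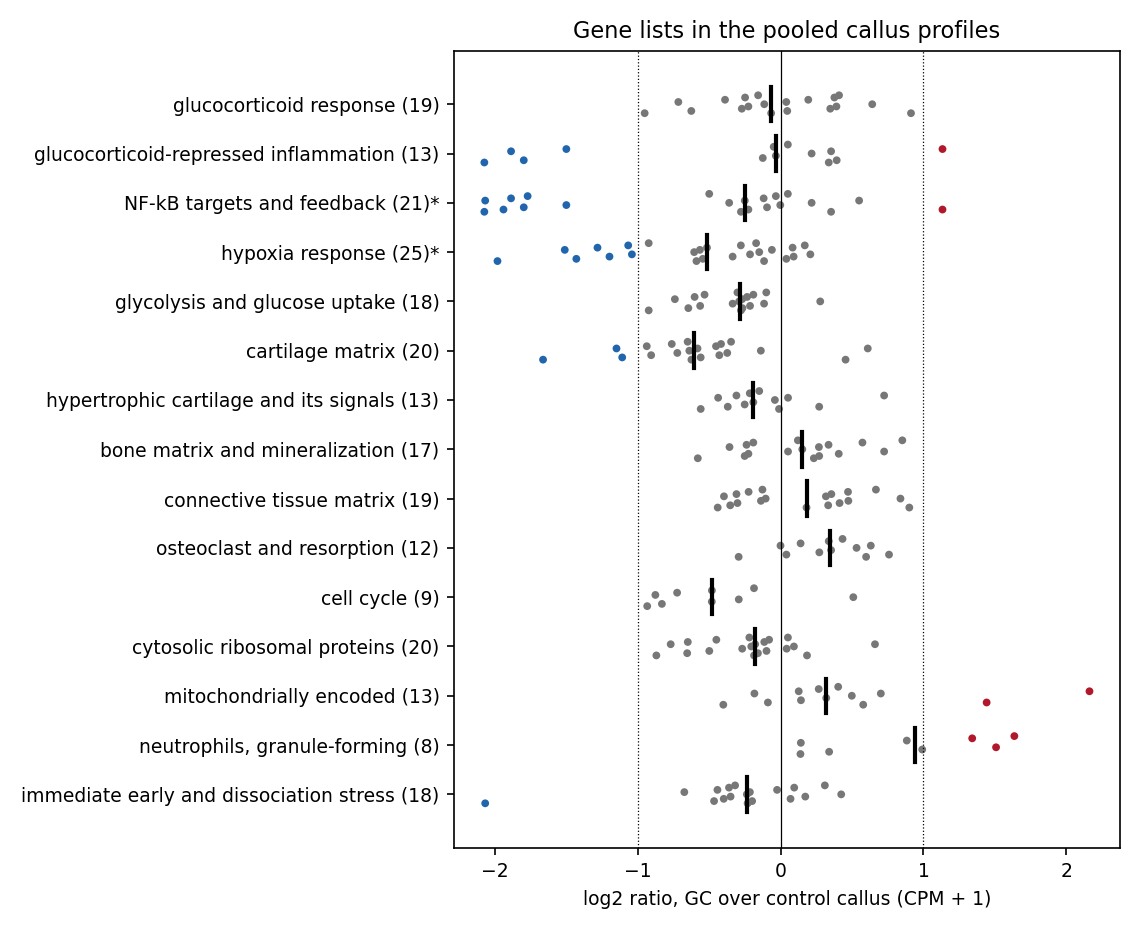
Log2 ratio of GC over control callus (x axis, CPM + 1) for the compared genes of 15 lists, with the number compared in parentheses. Points are genes, red where at least 2-fold higher and blue where at least 2-fold lower, black bars are list medians, dotted lines mark 2-fold, and an asterisk marks the 2 lists assembled after values had been seen. Cartilage matrix and hypoxia medians lie near -0.6 and -0.5, and the median of granule-forming neutrophil genes at 0.94.

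Growth factors and their antagonists included calls in both directions. Of 15 compared bone morphogens and antagonists, 1 was higher, Fst (follistatin, which binds activins), at 6.79 CPM in control and 22.3 CPM in GC callus, a ratio of 3.28 (2.98 to 3.61). The 1 lower was Chrdl2, beside shares over all genes compared of 0.599% higher and 0.691% lower. Bmp2, a bone morphogenetic protein, stayed just under the call, at 201 and 387 CPM, a ratio of 1.92 (1.89 to 1.96), and was higher in 9 of 10 clusters. Tnfrsf11b, the decoy receptor osteoprotegerin, which was singled out after its value was seen, was at 139 and 274 CPM, a ratio of 1.97 (1.92 to 2.02).

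Osteoclast genes were above 0 in the pooled profile. Ctsk, cathepsin K, was at 246 CPM in control and 373 CPM in GC callus, and Acp5, the phosphatase behind TRAP staining, at 89.2 and 129 CPM. The 4 compared osteoclast markers had a median log2 ratio of 0.57, which was 0.06 with cluster shares held. For the 12 compared genes of resorption the medians were 0.35 and 0.10. Nfatc1, the osteoclast master factor that other callus cells also express, had a log2 ratio of -0.29.

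Genes of dividing cells were low in level and below control. Of 20 cell cycle genes only 9 reached the minimum level. Of these 0 were called, 8 lay below 0, and the median log2 ratio was -0.48, with a range of -0.699 to -0.069 over the alternative settings. Top2a, a topoisomerase of dividing cells, was at 37.7 CPM in control and 20.7 CPM in GC callus, and Stmn1, stathmin, at 65.4 and 33.8 CPM. Pcna, a replication clamp that DNA repair also uses, was above 0 at 0.51. Among genes outside the list, Ube2c, Cdca3, Prc1 and Hist1h2ap, all of the cell cycle, were called lower.

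Genes that the receptor switches on were not called in callus. Of 23 glucocorticoid-response genes 19 were compared, 0 were called in either direction, 9 lay above and 10 below 0, and the median log2 ratio was -0.07. Over all genes compared, 0.599% were called higher and 0.691% lower, so 0 calls among 19 genes does not set this list apart. Fkbp5, a chaperone partner of the receptor and a standard marker of exposure, was at 19.8 CPM in control and 31.4 CPM in GC callus, a ratio of 1.59 (1.49 to 1.69), and it was higher in 10 of 10 clusters. Sgk1, a kinase induced by the receptor, was at 539 and 1016 CPM, a ratio of 1.88 (1.86 to 1.91). Tsc22d3, which encodes GILZ, was at 104 and 119 CPM, a ratio of 1.14 (1.11 to 1.18).

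Other members of that list were lower. Ddit4, an inhibitor of mTORC1 that hypoxia also induces, was at 48.3 CPM in control and 24.5 CPM in GC callus, a log2 ratio of -0.95. Il1r2, the decoy receptor for interleukin-1, was at 22.6 and 13.3 CPM, a log2 ratio of -0.72. Errfi1, a feedback inhibitor of the EGF receptor, was at -0.63, and the clock gene Per1 at -0.39. The metallothioneins Mt1 and Mt2 were above 0, at 0.41 and 0.35, and so were Klf9 and Dusp1, at 0.39 and 0.38. The sign of Dusp1 was not stable: its log2 ratio ran from -0.475 to 0.591 over the alternative settings. It was 0.12 with cluster shares held and 0.15 without cluster number 4. In cluster number 1, where its level was highest, Dusp1 was at 2941 CPM in control and 1250 CPM in GC.

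The same genes stood further apart in trabecular bone. There 16 of the 23 reached the minimum level, 4 were called higher and 0 lower, beside background shares of 0.771% called higher and 0.816% called lower among 6619 genes. Fkbp5 was at 16.0 CPM in control and 60.5 CPM in GC trabecular bone, a ratio of 3.78 (3.45 to 4.15), against 1.59 in callus. Tsc22d3 was at 76.0 and 167 CPM, a ratio of 2.19 (2.10 to 2.30), against 1.14 in callus. Of the 16 genes compared in both tissues, 12 had the larger log2 ratio in trabecular bone, and the medians were 0.48 there and -0.01 in callus. With 1 library a side in each tissue, the difference between tissues was not tested.

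**Figure D4:**
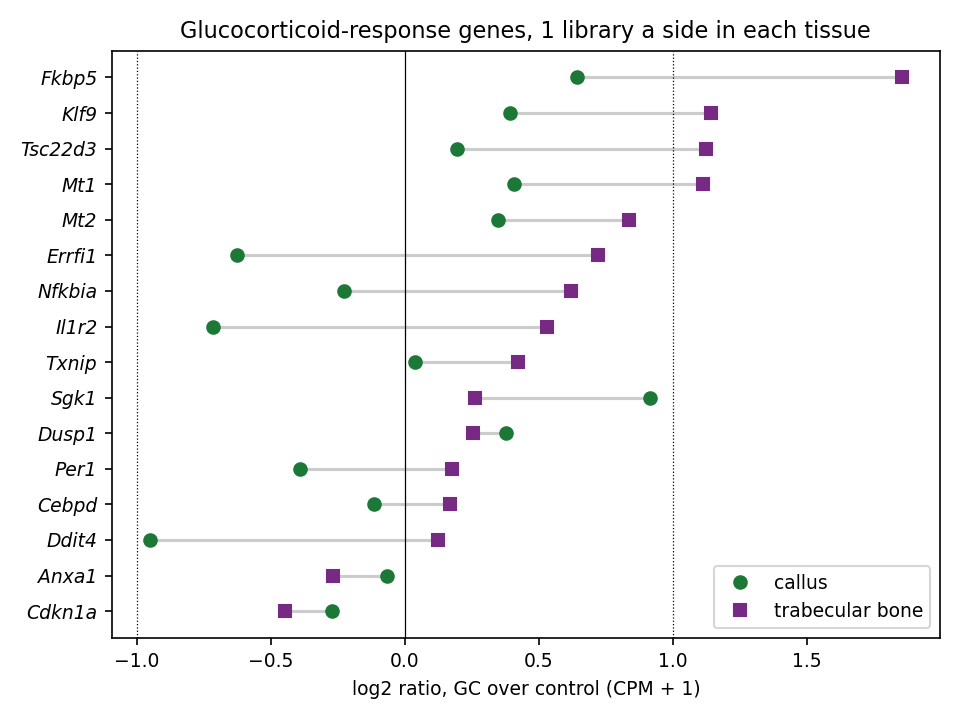
Log2 ratio of GC over control (x axis, CPM + 1) of 16 glucocorticoid-response genes in callus (green circles) and trabecular bone (purple squares), 1 library a side in each. Fkbp5, Klf9, Tsc22d3 and Mt1 pass 2-fold in trabecular bone (dotted line) and none of the 16 does in callus.

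Outside this list the 2 tissues shared few calls. Of the callus calls 45 were measured in trabecular bone, and of the trabecular calls 64 were measured in callus. Between them 3 genes were called in the same direction and 2 in opposite directions. With a mean of at least 20 CPM in each tissue, 1 gene was higher in both, Chil3, a chitinase-like protein of myeloid cells, at log2 ratios of 1.64 in callus and 1.92 in trabecular bone. Across 5620 genes compared in both, which are not independent replicates, Pearson's r of the log2 ratios was -0.09.

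The marker list of granule-forming neutrophils was the clearest cell-type set on the higher side, though its member Chil3 was shared with another cluster. Chil3 was at 24.8 CPM in control and 79.3 CPM in GC callus, a ratio of 3.19 (3.04 to 3.36). It was highest in cluster number 3, led by Lyz2, at 369 and 873 CPM, and number 7, led by Ngp, at 264 and 989 CPM. Of the GC UMIs, cluster number 3 held 5.43% and number 7 held 1.95%, so the pooled change in Chil3 is not that of granule-forming neutrophils alone. Camp, cathelicidin, was at 57.6 and 166 CPM, and Ngp, neutrophilic granule protein, at 99.0 and 252 CPM. In cluster number 7 Camp was at 2790 CPM in control and 7726 CPM in GC, and Ngp at 4843 and 11600 CPM. Both were lower in GC in number 4, Camp at 780.6 and 126.5 CPM and Ngp at 997.3 and 210.5 CPM. Camp was higher in 2 of 5 clusters and Ngp in 4 of 7. Few barcodes carried them: 12 barcodes held 50% of the Camp UMIs of GC callus and 23 those of Ngp. All 8 compared markers of granule-forming neutrophils lay above 0 (median log2 ratio 0.94), 3 were called, and the summed level of the list was 296 CPM in control and 663 CPM in GC. Over all genes compared, 0.599% were called higher.

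Markers of mature neutrophils moved less, with a median log2 ratio of 0.26 over 9 compared genes. S100a8 and S100a9, calcium-binding proteins of these cells, had log2 ratios of 0.29 and 0.44, and Retnlg 0.14. Wfdc21 was furthest above 0, at 0.97. Signs were not stable over the alternative settings: the median ran from -0.161 to 0.328, S100a8 from -0.323 to 0.49 and S100a9 from -0.159 to 0.659. S100a8 was at 23150 CPM in control and 21920 CPM in GC in cluster number 1, and at 22350 and 36620 CPM in number 7. Il1b, which belongs to that list too, was at -2.07, below those other markers. Trem1, an amplifying receptor of neutrophils and monocytes, was at -0.74.

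Other marker lists gave values for the mixture. Summed levels in control and GC callus were 147 and 188 CPM for monocytes and macrophages, 59.5 and 96.8 CPM for endothelial cells, 1106 and 1425 CPM for erythroid cells, 684 and 550 CPM for B cells, and 949 and 1199 CPM for plasma cells. T and NK markers summed to 81.2 and 102 CPM, pericyte and smooth muscle markers to 525 and 456 CPM, and skeletal stem and stromal markers to 488 and 627 CPM. The pericyte sum includes Cspg4, which clusters rich in Col2a1 also held, at 478 and 401 CPM in number 0 and 631 and 584 CPM in number 2. The 3 compared pericyte and smooth muscle markers had a median log2 ratio of 0.19, with 2 above 0. Median log2 ratios were 0.03 for 4 dendritic cell markers, -0.37 for 5 markers of hypertrophic chondrocytes and 0.19 for 8 of osteoblasts and osteocytes, with 0 called in each. Muscle, platelet and mast cell markers stayed under 20 CPM in sum and had 0 genes compared.

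Slc38a2, Hmox1, Lmo4 and Tle4, which had high ratios, were spread over many cells, with 400 to 810 barcodes for 50% of their UMIs in GC callus. Slc38a2, the amino acid transporter SNAT2, was at 390 CPM in control and 993 CPM in GC callus, a ratio of 2.55 (2.51 to 2.58), and it was higher in 12 of 12 clusters. Hmox1, heme oxygenase 1, was at 278 and 582 CPM, and higher in 10 of 11 clusters. Lmo4, a LIM domain factor, was at 179 and 416 CPM, and Tle4, a Groucho corepressor, at 14.4 and 36.1 CPM, each higher in 11 of 11. Gpnmb, a glycoprotein of macrophages and osteoclasts, was at 10.5 and 30.3 CPM, and Igfbp5, which binds insulin-like growth factors, at 41.2 and 102 CPM. These 2 rested on fewer cells, with 76 barcodes for 50% of the Gpnmb UMIs and 20 for those of Igfbp5.

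Some calls had the same direction in every cluster compared, without respect to cell type. Slc38a2, Lmo4, Tle4, Ier3 and Hilpda, given above, did so too. Whether a difference between the libraries as a whole has a part in such genes was not tested. The mitochondrial genes mt-Atp8 (59.9 CPM in control and 272 CPM in GC callus) and mt-Nd4l (236 and 642 CPM) were higher in 12 of 12 clusters. They overlap mt-Atp6 and mt-Nd4 on the same strand, and mt-Atp6 itself had a log2 ratio of -0.40 and mt-Nd4 0.27. The 13 mitochondrially encoded genes had a median of 0.32, with these 2 called, beside a share of 0.599% called higher over all genes compared. AY036118, which overlaps the ribosomal RNA gene Gm42418, was at 133 and 348 CPM and higher in 12 of 12. These genes were abundant in control barcodes with 10 to 100 UMIs, a fraction expected to hold mostly free RNA, at 729, 2699 and 3053 CPM. No such barcodes are listed for GC callus, and the part of free RNA in these ratios was not tested.

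Ribosomal protein genes went to both sides. Rps15 was at 1618 CPM in control and 689 CPM in GC callus, and Rpl12 at 1814 and 780 CPM, and both were lower in 12 of 12 clusters. The list of 20 had a median log2 ratio of -0.18 and 0 called. Of 80 cytosolic ribosomal protein genes compared, these 2 were the called ones, 52 lay below and 28 above 0, and the median log2 ratio was -0.10. The share called lower over all genes compared was 0.691%. Rpl41 was at 4620 and 7302 CPM, a log2 ratio of 0.66. In trabecular bone Rps15 and Rpl12 had log2 ratios of 0.12 and 0.14. The header of the GC callus matrix names its software as cellranger-4.0.0 and that of the control matrix as Cell Ranger 4, and the part of processing in these ratios was not tested.

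Most calls held when clusters were reweighted or number 4 was left out, but fewer held when every barcode was weighted alike. The mean over barcodes kept 29 of the 46 higher and 29 of the 53 lower calls. With the GC clusters weighted to the UMI shares of control, 36 of the 46 higher and 45 of the 53 lower genes were still at least 2-fold apart, and all 46 and 53 kept their sign. Those genes had been called on these same counts, so a kept sign is a description and no independent check. Without cluster number 4, 44 and 52 stayed past 2-fold. Cxcl12, a chemokine of stromal and endothelial cells and the leading gene of that cluster, was among those that did not: it was at 12.3 CPM in control and 30.1 CPM in GC callus, a log2 ratio of 1.23 that was 0.45 with shares held and 0.63 without the cluster. H19 and Ucma, leading genes of cluster number 2, went from -1.04 to -0.67 and from -1.15 to -0.77 with shares held.

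**Figure D5:**
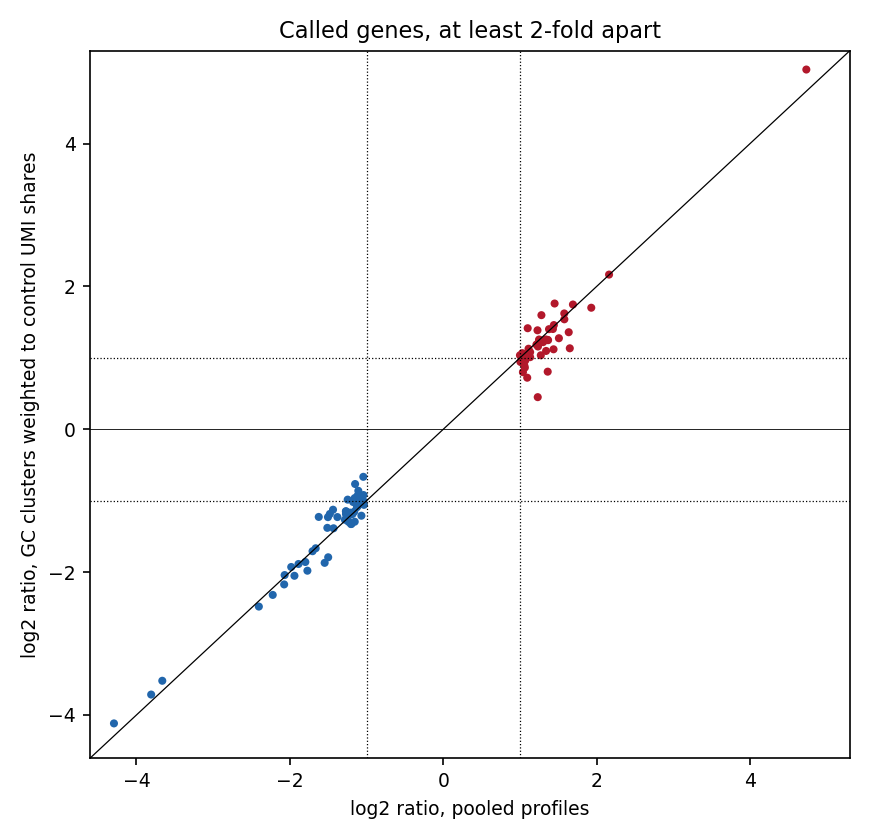
Log2 ratio of GC over control callus for the 99 called genes in the pooled profiles (x axis) and after weighting the GC clusters to the UMI shares of control (y axis), red for higher and blue for lower. Dotted lines mark 2-fold and the solid diagonal equality, and all 46 higher genes stay above 0 and all 53 lower genes below it.

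Most called genes were carried by many barcodes. In the library with the higher level, at least 100 barcodes were needed for 50% of the UMIs in 31 of the 46 higher and 39 of the 53 lower genes. At most 10 barcodes held them in 3 higher genes (Ighg1, Iglc1 and Mt3) and 2 lower genes (Iglc3 and Ighg2b). Of the called genes, 28 of 46 higher and 29 of 53 lower had the same direction in every cluster compared, clusters with low levels included.

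Immunoglobulin genes had the largest ratios of all and the fewest carriers. Iglc3, a lambda light chain, was at 49.2 CPM in control and 1.56 CPM in GC callus, Ighg2b at 20.5 and 0.536 CPM, and Ighg1 at 0.202 and 31.0 CPM. In each case 1 barcode held at least 50% of the UMIs of the higher library. A plasma cell makes 1 antibody in large amounts. Of 7 constant genes compared 2 were called higher and 3 lower, with a median log2 ratio of 0.26. The shares over all genes compared were 0.599% and 0.691%. Igkc and Igha, which more barcodes share, had log2 ratios of 0.26 and 0.46. Ighm, the chain of naive and early B cells, was at 83.5 and 34.1 CPM, with 96 barcodes for 50% of its control UMIs.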

How the data were processed

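Single-cell RNA-Seq of callus and trabecular bone was analysed for 4 libraries, 1 each from control and GC mice. The authors deposited UMI counts per gene and barcode, without normalization; the submitters' processing notes list Cell Ranger 5.0.1, Seurat 3.2.0 and mm10, while the file headers name Cell Ranger 4 or cellranger-4.0.0. The labels name the 10x Genomics Kit v2, but the control callus matrix lists 6794880 barcodes, and the chemistry used is uncertain. The authors' cell labels were not used here. Their settings for the single-cell data are not given in the sources used here.

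Counts were summed over barcodes with at least 500 UMIs, at least 200 genes and at most 10% mitochondrial UMIs, and divided by the library total. Of 7571 control callus barcodes with at least 500 UMIs, 254 were removed for few genes and 329 for mitochondrial UMIs, 145 of them for both. In GC callus 233 and 262 of 7762 were removed, 51 for both. The kept barcodes hold 93.0% and 98.6% of the UMIs of the matrices. No doublets were removed. Log2 ratios added 1 CPM, and genes with a mean of at least 10 CPM in the pair were compared. With 1 library a side there is no replicate, so ratios carry counting intervals only (95%), and UMIs limit the precision to those printed.

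Clustering of callus barcodes took 2000 variable genes reduced to 30 components, linked each barcode to 15 neighbors and cut the graph by the Leiden method at resolution 0.3. A cluster entered a count of directions when it had at least 20 barcodes on both sides and the gene at least 20 UMIs in it. Gene positions are from GENCODE, which matched 32235 of 32285 genes, and promoters from RefSeq. Tables were handled in Python 3.11.15 with pandas 2.3.3 and numpy 2.4.6, clusters came from leidenalg 0.10.2 on igraph 0.11.9 after components from scikit-learn 1.9.0, intervals from scipy 1.17.1 and plots from matplotlib 3.10.9. The scripts were tested on simulated data.

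Named genes were the 15 highest and 15 lowest ratios among genes with a mean of at least 20 CPM, the glucocorticoid-response genes, up to 4 members of every other list (the 2 most abundant and the 2 furthest from 0), and genes called in both tissues. Genes named otherwise were chosen after their values were seen, and so were the NF-kB, hypoxia, immunoglobulin and full ribosomal protein lists. The barcodes to sum, the 37 other lists and the 18 alternative settings were chosen with earlier results of these data known, and 1 setting was added after the clusters had been seen.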

Additional observations from a re-analysis of the deposited data

Results flagged for a closer look

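In 5 flagged genes the ratio pointed to opposite sides in the 2 tissues, at least 2-fold each way. With 1 library a side in each tissue, these differences were not tested. Only 2 genes did so with a mean of at least 10 CPM in both tissues. Outside the flagged set, Prelp (-1.25 in callus and 1.23 in trabecular bone) and H19 (-1.04 and 1.83) also did. Their trabecular means were 2.36 and 1.27 CPM. Cxcl1, a neutrophil chemoattractant, had a log2 ratio of -1.89 in callus and 2.59 in trabecular bone, where its mean was 7.51 CPM. Igfbp5, a binding protein of insulin-like growth factors, was at 1.28 in callus and -1.52 in trabecular bone. Gpnmb, a glycoprotein of macrophages and osteoclasts, was at 1.44 and -1.32, with a trabecular mean of 4.02 CPM. The antibody chains Ighg2b (-3.81 and 6.54) and Ighg1 (4.73 and -4.17) rested in callus on 1 barcode for at least 50% of the UMIs of the higher library.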

How the results depend on the processing

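The counts of genes called, 46 higher and 53 lower, moved by over 1.5 times under 4 settings. The mean over barcodes, which weights every barcode alike, gave 84 lower (and 68 higher), of which 29 lower and 29 higher genes were among those called in the pooled profile, and the cause was not tested. A pseudocount of 5 CPM gave 30 higher. With no filter on low values, 93 were higher and 109 lower of 24513 genes, and with a mean of at least 50 CPM 15 and 20 of 2755, since fewer or more genes were compared. The other settings stayed between 35 and 53 higher and between 53 and 76 lower, with TMM scaling at 35 and 76. Of 143 results for named genes, 29 changed sign in 50 of 2574 comparisons, and 0 of the 37 that were called. The 37 had been called on these same counts. Of 34 list medians, 11 changed sign in 14 of 612 comparisons, and the 1 called median did not. That median was of the fat cell list, which had 1 compared gene, Fabp4, and it ran from 0.807 to 1.437. Subtracting free RNA gave no count, because the GC callus matrix lists no low-UMI barcodes. No paired analysis was possible because each group is 1 library. With no replicates, depth limits only the counting error, and the spread between animals is unknown.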

Other observations

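Several transcripts without a protein product or with a predicted or clone-based name were also apart. Gm12976 was at 10.9 CPM in control and 44.5 CPM in GC callus, higher in 4 of 4 clusters, and Gm4258 at 32.0 and 82.3 CPM, higher in 8 of 8. The gene 1520401A03Rik, annotated as protein coding, was at 48.4 and 2.90 CPM, lower in 4 of 4 clusters, with 39 barcodes for 50% of its control UMIs. Meg3, an imprinted long noncoding RNA, was at 192 and 87.9 CPM and lower in 10 of 10 clusters, and H19, another, at 181 and 87.3 CPM. Of the called genes, 9 higher and 1 lower have predicted or clone-based names.

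Genes of the interferon response were barely measured in this tissue: 4 of 15 matched genes reached the minimum level, all 4 lay below 0, and Ifit3 was the lowest at a log2 ratio of -0.51. The 5 compared genes of the Csf axis had a median log2 ratio of 0.13 and 0 called, with Csf1, the growth factor of macrophages, at 41.8 and 51.0 CPM and its receptor Csf1r at 25.8 and 38.4 CPM. Of 5 compared genes of vascular growth (median -0.10), Cxcl12 was called higher, where the shares over all genes were 0.599% higher and 0.691% lower. Pgf, a growth factor of vessels, was called lower at 17.7 and 7.12 CPM, while Flt1, its receptor, was at 10.4 and 17.1 CPM, a log2 ratio of 0.67 that was -0.02 with cluster shares held.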
